A study of Mus musculus with 4 samples.

Results

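The genes described here were 10 of the 31053 features in the count matrices. They were Gdf15, the calcineurin regulator gene Rcan1, and the integrated stress response genes Ddit3, Atf4, Atf5, Trib3, Asns, Sesn2, Chac1 and Ppp1r15a. Each was found by its symbol, and every symbol matched 1 feature. The set was chosen by measured values, the UMIs of Gdf15 and Rcan1 in microglia of these same libraries on day 1 against sham, so the day 1 values of this pair in microglia are given as a description and support nothing. The question carried through the results was whether the other cell classes, and the other 8 genes, showed the same pattern.

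Single cells were taken from the ipsilateral cerebral hemisphere of male C57/BL6 mice, labelled as 8 weeks old, and sequenced with 10x Genomics chemistry. Transient middle cerebral artery occlusion (tMCAO), in which a filament blocks the artery and is then withdrawn so that blood flows back, was compared with a sham operation. There was 1 library for each of sham, day 1, day 3 and day 7 after tMCAO. The series design text places the sham library at day 7, and the sources used here do not give the number of mice in a library. With 1 library per group, the difference between libraries and the difference between conditions cannot be told apart, and no p-value is given. All comparisons with sham share the same sham library.

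The 4 libraries held 69392755 to 104023002 UMIs each and 59429 barcodes in all, of which 44360 passed the filters (7562 in sham, 13376 on day 1, 9378 on day 3 and 14044 on day 7), with a median of 2508 to 3732 unique molecular identifiers (UMIs, counted RNA molecules) per kept cell. A gate on marker genes placed 93.3% of kept cells in a class, and a class is called X-like because the names were rebuilt here. The microglia-like class held 129, 513, 365 and 280 cells in sham, day 1, day 3 and day 7. All 12 of its markers were found in at least 10% of its cells, and its leading genes by fold were Ccl4, Cx3cr1, Il1a, Trem2, Ly86, C1qb, C1qa, P2ry12, Ccl3 and Fcrls, so that inflammatory cytokine genes stood among microglial identity genes. Between 33 and 88 barcode sequences were shared by any 2 libraries, at most 0.562% of the smaller one.

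The integrated stress response is a shared programme in which any of several kinases phosphorylates the translation factor eIF2α. General protein synthesis then slows, while a few messages with upstream reading frames, above all that of Atf4, are translated more. ATF4 protein switches on genes for amino acid supply, redox balance and feedback, and because control of Atf4 and Atf5 is largely translational, their RNA level is not a measure of their protein. Ischemia is a known trigger of the response in the brain.

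Promoter sequences are shown for the genes on which the results turn and for members that hold the composite C/EBP-ATF response element, the site type through which ATF4 acts. The sequences are those of RefSeq on GRCm38.p6, 250 bases before to 50 bases after a transcription start, written 5′ to 3′ on the gene's own strand. All 10 genes matched, with 13 starts among them. The 4 motifs searched, on both strands, were TGATGNAA (the composite C/EBP-ATF response element), GGAAA (the core bound by NFAT factors), the ER stress response element, searched by its consensus, and the cAMP response element TGACGTCA. TGATGNAA was present in 3.97% of 32851 promoters of the same length, and in those of Asns, Chac1 and Trib3 among the members. Asns lies on the minus strand at chr6:7693160-7693459, Chac1 on the plus strand at chr2:119350992-119351291 and Trib3 on the minus strand at chr2:152344011-152344310. Capitals mark the match, which read TGATGAAA in Asns and was found on the opposite strand in Chac1 and Trib3.
Asns: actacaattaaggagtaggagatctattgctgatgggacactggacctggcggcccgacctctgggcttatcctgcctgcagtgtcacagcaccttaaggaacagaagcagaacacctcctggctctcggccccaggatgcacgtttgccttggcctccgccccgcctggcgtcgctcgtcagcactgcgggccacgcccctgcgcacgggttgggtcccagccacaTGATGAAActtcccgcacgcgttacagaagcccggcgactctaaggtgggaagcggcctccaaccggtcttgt
Chac1: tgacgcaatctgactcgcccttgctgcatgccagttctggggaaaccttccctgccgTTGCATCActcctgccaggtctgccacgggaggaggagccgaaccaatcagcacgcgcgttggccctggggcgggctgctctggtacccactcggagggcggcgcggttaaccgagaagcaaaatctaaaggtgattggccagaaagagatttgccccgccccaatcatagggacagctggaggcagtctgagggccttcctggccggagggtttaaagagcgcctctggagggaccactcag
Trib3: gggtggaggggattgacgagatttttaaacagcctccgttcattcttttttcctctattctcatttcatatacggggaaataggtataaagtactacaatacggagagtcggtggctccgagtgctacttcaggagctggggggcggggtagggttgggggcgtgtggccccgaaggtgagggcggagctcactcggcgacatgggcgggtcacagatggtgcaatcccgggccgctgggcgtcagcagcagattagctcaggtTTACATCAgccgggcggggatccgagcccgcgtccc

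The second pair is shown because Gdf15 and Rcan1 differed in which classes they were called in. The Gdf15 window at chr8:70632407-70632706, minus strand, held none of the 4 motifs. The Rcan1 window of the downstream start, at chr16:92400029-92400328 on the minus strand, held GGAAA at 3 places, marked in capitals in either orientation, and also held TGACGTCA. At least 2 GGAAA matches were present in 26.7% of all promoters and at least 1 in 61.3%, so such a match is common, and TGACGTCA was present in 1.79%. The other annotated Rcan1 start, at chr16:92466120-92466419, held no GGAAA. A match is a description of letters, and the absence of one says only that these letters are not in this window.
Gdf15: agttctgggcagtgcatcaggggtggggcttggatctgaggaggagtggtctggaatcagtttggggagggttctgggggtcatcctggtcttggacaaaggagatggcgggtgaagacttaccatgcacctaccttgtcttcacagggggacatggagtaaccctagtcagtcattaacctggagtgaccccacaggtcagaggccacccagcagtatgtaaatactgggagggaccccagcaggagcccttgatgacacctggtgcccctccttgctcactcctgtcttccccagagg
Rcan1: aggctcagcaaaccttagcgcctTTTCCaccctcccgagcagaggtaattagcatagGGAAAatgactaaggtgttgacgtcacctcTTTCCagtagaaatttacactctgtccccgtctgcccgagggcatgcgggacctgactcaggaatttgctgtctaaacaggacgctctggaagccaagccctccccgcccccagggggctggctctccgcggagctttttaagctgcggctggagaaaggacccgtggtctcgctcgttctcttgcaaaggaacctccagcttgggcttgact

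Gdf15 encodes a secreted stress cytokine of the TGF-β superfamily that signals to the brainstem through GFRAL. Its UMIs were summed over the cells of a class and given as CPM, the count scaled to the total UMIs of that class and library. In microglia-like cells the level was 19.0 CPM in sham, 147 CPM on day 1, 79.2 CPM on day 3 and 23.0 CPM on day 7, resting on 8, 324, 99 and 23 UMIs. Day 1 stood above the other libraries. The day 3 level was 21.5 CPM with the stricter gate and 21.0 CPM without likely doublets, and its call was lost in both. The day 7 level was 5.71 CPM with classes from clusters, where it was called lower than sham, 9.20 CPM with the stricter gate and 9.01 CPM without likely doublets, so its place beside sham depended on the cells included. The ratio to sham was 7.76 on day 1 (exact 95% interval 3.89 to 18.1), 4.17 on day 3 (2.03 to 9.92) and 1.21 on day 7 (0.523 to 3.13). These intervals, as all those given here, cover counting error only, and the UMIs of a gene were clumped within cells, so the spread between cells was wider than they show.

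A gene was called higher or lower in a class when the log2 ratio with 5 CPM added to each level was at least 1 or at most -1 and the exact interval excluded 1. It was tested only with at least 10 UMIs in the pair, at least 10 CPM in one library and at least 50 cells in both. On day 1, 8 classes could be compared, and 43 of the 80 combinations of gene and class were tested. Of these, 6 were called higher and 0 lower, beside 4.58% and 4.24% of all tested combinations of gene and class. Without the pair of values that chose the set, Gdf15 and Rcan1 in microglia-like cells, 4 of 41 were higher and 0 lower. The 6 were Gdf15 in microglia-like, smooth muscle-like and choroid plexus-like cells, Rcan1 in microglia-like cells, and Ppp1r15a in choroid plexus-like and astrocyte-like cells. On day 3, 5 of 40 were higher and 1 lower, beside 4.41% and 2.31%, and on day 7, 4 of 37 were higher and 1 lower, beside 3.34% and 1.43%. The day 3 count holds 2 calls in microglia-like cells, of Gdf15 and Rcan1, and 2 in erythrocyte-like cells. The day 7 count holds the call of Rcan1 in microglia-like cells. The sham values of this pair entered the choice of the set, so its calls on these days support nothing either.

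**Figure D1:**
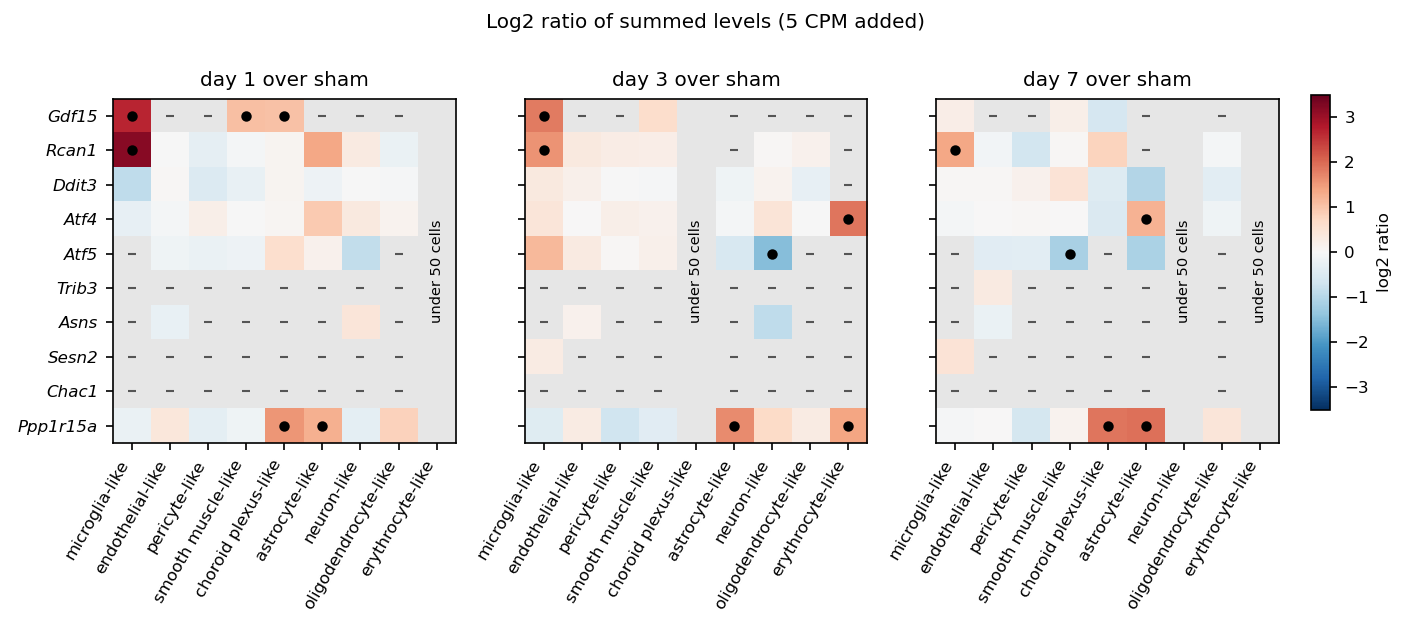
Log2 ratio of each gene's summed level to sham (5 CPM added to both) in each class, on day 1, day 3 and day 7; dots mark called ratios, dashes and grey mark combinations below the UMI or CPM minimum, and columns marked under 50 cells were not compared. Gdf15 has 3 dots on day 1 and Rcan1 has 1 on each day, in microglia-like cells.

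Gdf15 was also called higher on day 1 in vascular smooth muscle-like cells. Their level was 22.4 CPM in sham, 52.0 CPM on day 1, 37.1 CPM on day 3 and 26.8 CPM on day 7, from 104, 148, 165 and 213 UMIs. Day 1 was the highest library, and sham was the lowest except with a mitochondrial limit of 5%, where the log2 ratio was -0.22 on day 3 and -0.55 on day 7. The day 1 ratio was 2.32 (1.79 to 3.01), where 2.24% of genes in this class were called higher. Day 3, at 1.66 (1.29 to 2.14), excluded 1 but stayed under the 2-fold threshold. The day 1 UMIs were spread over 87 cells, with at most 10 in a cell. The call was lost when the mitochondrial limit was lowered to 5% (log2 ratio 0.32) and with 20 CPM added (0.76). Markers of other classes were also higher in these cells on day 1 than in sham, microglia markers at 148 against 37.3 CPM, border macrophage markers at 45.7 against 22.4 (1 and 3 of 7 at 0), monocyte markers at 23.9 against 4.09, neutrophil markers at 45.3 against 2.59 and endothelial markers at 755 against 182. Of the monocyte markers 5 of 6 were at 0 in sham and 2 on day 1, and of the neutrophil markers 3 and 4 of 8. Their part in the result was not tested.

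Choroid plexus-like cells, the epithelium that makes cerebrospinal fluid, held 24.2 CPM of Gdf15 in sham, 54.7 CPM on day 1 and 14.5 CPM on day 7, from 9, 123 and 7 UMIs. Day 3 had 44 cells of this class and was not compared. The day 1 ratio was 2.26 (1.15 to 5.05), where 1.66% of genes in the class were called higher. The call was kept in 5 of 10 alternatives. The log2 ratio was 0.11 with cells of up to 6000 genes, -0.029 with no limit, 0.51 without likely doublets, 0.95 with the stricter gate and 0.76 with 20 CPM added. The median depth of these cells was 2976 UMIs in sham and 11626 on day 1, and the part of this gap in the result was not tested.

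No other class was tested for Gdf15 on day 1. Endothelial-like cells, the largest class, held 2.23, 4.85, 1.45 and 0.536 CPM in sham, day 1, day 3 and day 7, under the 10 CPM minimum. Their day 1 ratio was 2.18 (1.45 to 3.34), from 80 and 35 UMIs, and 18 of the 35 sham UMIs lay in 1 cell. Within them, arterial cells held 1.81 and 7.98 CPM, capillary cells 2.90 and 4.44 CPM and venous cells 0 and 6.75 CPM in sham and on day 1. Pericyte-like cells held 2.33 and 8.55 CPM in these libraries, from 2 and 10 UMIs. Oligodendrocyte-like cells held 0.709 and 1.76 CPM, from 4 and 21 UMIs, and 3.00 CPM on day 3. Neuron-like cells held 2.40 and 2.52 CPM. All these levels were under the 10 CPM minimum, so the differences were not tested. Astrocyte-like cells held 13 CPM on day 1 from 8 UMIs and none in sham, too few UMIs to test. Ependymal-like cells held 21.5 CPM and fibroblast-like cells 18.5 CPM on day 1, with too few sham cells for a ratio. Among 91 T or NK-like cells of day 7 there was no Gdf15 UMI. Some classes with under 50 cells on day 1 held it at high levels from few UMIs. There were 34 Gdf15 UMIs among the 28573 UMIs of 9 erythrocyte-like cells (0 in 75 sham cells), 10 in 38 neutrophil-like cells (179 CPM) and 8 in 21 monocyte-like cells (73.5 CPM). The erythrocyte-like and neutrophil-like levels were above the 147 CPM of microglia-like cells.

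Border macrophage-like cells are the macrophages of the meninges and perivascular spaces. On day 1 their 55 cells held 185 CPM of Gdf15 (57 UMIs in 12 cells) and 218 CPM of Rcan1 (67 UMIs). Of the Gdf15 UMIs, 22 lay in 1 cell, without which the level was 117 CPM. The microglia-like level over theirs in the same library was 0.796 for Gdf15 (0.599 to 1.07) and 1.27 for Rcan1 (0.986 to 1.66), so both intervals included 1. The other libraries had 18 to 25 cells of this class and no ratio to sham was taken.

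**Figure D2:**
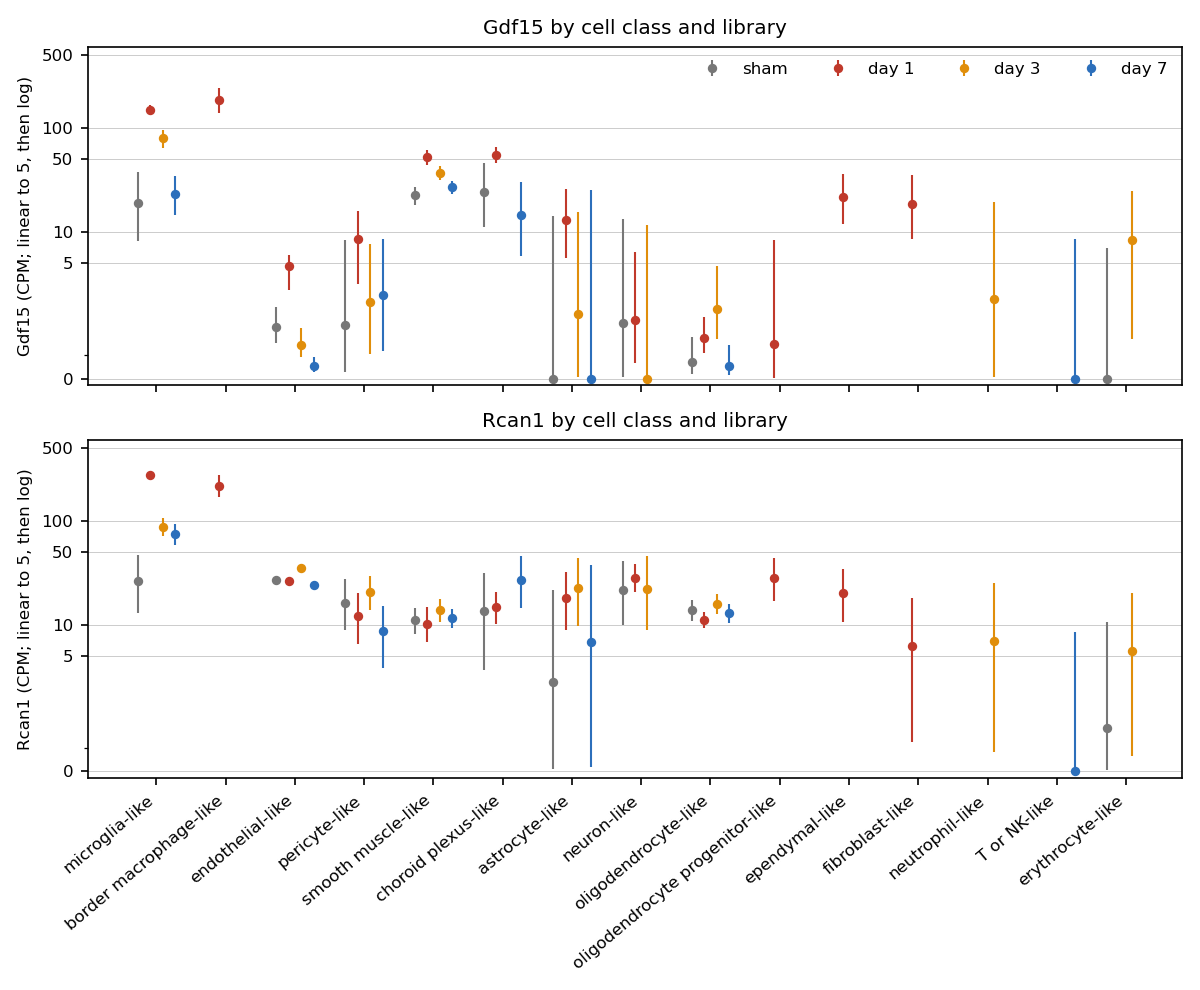
Summed level of Gdf15 (upper) and Rcan1 (lower) by cell class in each library with at least 50 cells, in CPM on an axis that is linear to 5 and logarithmic above; bars are exact 95% Poisson intervals. The day 1 points of microglia-like cells (147 and 277 CPM) and border macrophage-like cells (185 and 218 CPM) stand above the other classes shown.

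The makeup of each library's Gdf15 differed. All kept cells, with or without a class, held 189 Gdf15 UMIs in sham, 945 on day 1, 370 on day 3 and 305 on day 7. Smooth muscle-like cells gave 55.0% of them in sham and 15.7% on day 1, while microglia-like cells gave 4.23% in sham and 34.3% on day 1. Of all UMIs, smooth muscle-like cells held 14.9% in sham and 6.29% on day 1, and microglia-like cells 1.35% and 4.86%.

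Rcan1 encodes regulator of calcineurin, an inhibitor of the calcium-activated phosphatase that releases NFAT into the nucleus. In microglia-like cells its level was 26.1 CPM in sham, 277 CPM on day 1, 87.2 CPM on day 3 and 74.1 CPM on day 7, from 11, 608, 109 and 74 UMIs. All 3 tMCAO libraries were above sham. The ratios were 10.6 (5.87 to 21.3), 3.34 (1.79 to 6.88) and 2.84 (1.5 to 5.93), and all were called, where 9.14%, 4.12% and 3.75% of genes in these cells were called higher on day 1, day 3 and day 7. The day 1 and sham values chose the gene, so these calls are a description and support nothing beside those shares. The day 3 level over that of day 1 was 0.315 (0.255 to 0.387), and the day 7 to day 1 ratio was 0.268 (0.208 to 0.342). The same ratios for Gdf15 were 0.537 (0.425 to 0.675) and 0.156 (0.0977 to 0.239). On day 3, 1 cell held 73 of the 99 Gdf15 UMIs. Without the highest cell of each library, Gdf15 was 136 CPM on day 1 and 20.9 CPM on day 3.

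Rcan1 was called higher on day 1 in 1 of the 8 classes, and in the well-counted others the ratio lay close to 1. Endothelial-like cells held 26.6 CPM in sham and 26.3 CPM on day 1, from 417 and 434 UMIs, a ratio of 0.991 (0.864 to 1.14). Smooth muscle-like cells held 11 and 10.2 CPM, a ratio of 0.927 (0.567 to 1.49). The difference in ratio between these classes and the microglia-like cells, whose day 1 value chose the gene, was not tested. Oligodendrocyte-like cells held 13.8, 11, 15.9 and 12.9 CPM, and pericyte-like cells 16.3, 12, 20.5 and 8.70 CPM, in sham, day 1, day 3 and day 7. Astrocyte-like cells, with 1 sham UMI against 11 on day 1, had a ratio of 4.60 whose interval (0.669 to 198) included 1. Endothelial-like cells exceeded sham on day 3 at 1.33 (1.17 to 1.51), below the 2-fold threshold. Within them, venous cells held 28.3, 50.3, 54.7 and 47.8 CPM, arterial cells 35.0, 41.5, 48.8 and 32.7 CPM and capillary cells 23.5, 20.7, 25.3 and 19.6 CPM in the same order of libraries.

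Single cells showed how these levels were made up. On day 1, 62 of 513 microglia-like cells (12.1%) held a Gdf15 UMI, with at most 25 in a cell, and 144 (28.1%) held an Rcan1 UMI, with at most 27. In sham, 8 Gdf15 UMIs lay in 3 of 129 cells, 6 of them in 1 cell. On day 3, 73 of the 99 Gdf15 UMIs lay in 1 cell, which also held 17 Ddit3 and 7 Atf4 UMIs, had no UMI of C1qa, P2ry12, Cx3cr1 or Tmem119, and was among the likely doublets. Without that cell the day 3 level was 20.9 CPM, beside 19.0 CPM in sham, so the day 3 level of Gdf15 came mostly from 1 cell. Without their highest cell, the Gdf15 levels of sham, day 1 and day 7 were 4.84, 136 and 9.12 CPM. The corresponding Rcan1 levels were 19.2, 266, 70.1 and 60.8 CPM in sham, day 1, day 3 and day 7.

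**Figure D3:**
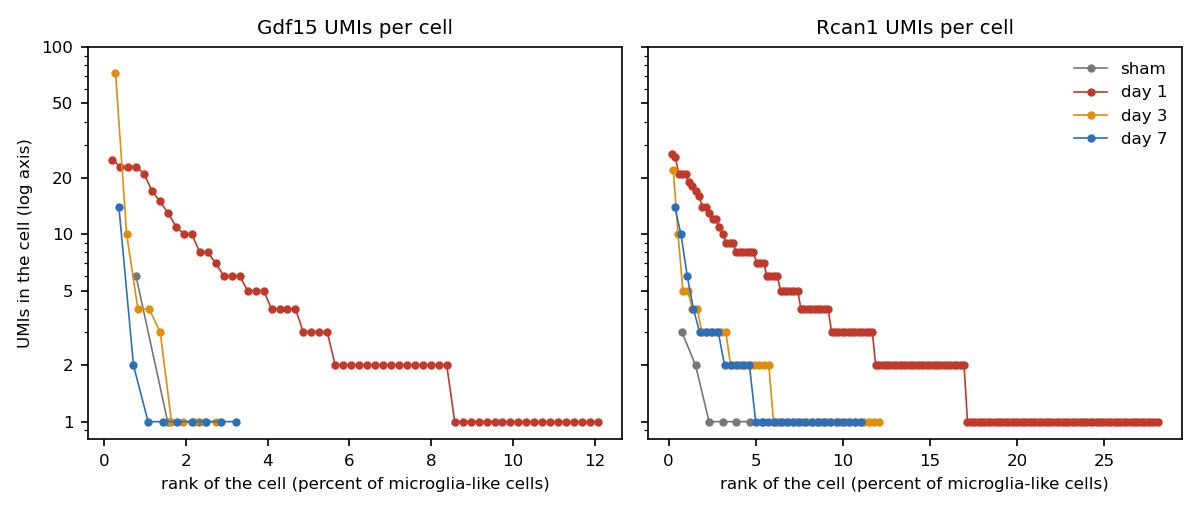
UMIs of Gdf15 (left) and Rcan1 (right) in each microglia-like cell that held any, ranked from highest to lowest; the horizontal axis is the rank as a percentage of that library's microglia-like cells and the vertical axis is logarithmic. The day 1 curves reach 12.1% and 28.1% of cells, and the day 3 Gdf15 curve starts at 73 UMIs in 1 cell.

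Shares were also compared at equal depth, after thinning each cell to 1000 UMIs and leaving out shallower cells (33, 98, 108 and 75 microglia-like cells in sham, day 1, day 3 and day 7). Microglia-like cells with a Gdf15 UMI were then 1.04% in sham, 5.78% on day 1 (24 of 415; exact interval 3.74 to 8.48%), 1.17% on day 3 and 0.488% on day 7. Endothelial-like cells, a class with little Gdf15, gave 0.121%, 0.239%, 0.165% and 0.0271%, with a day 1 median depth of 1841 UMIs beside 3316 in microglia-like cells. For Rcan1 the microglia-like shares were 1.04%, 16.1% (67 of 415; 12.7 to 20.04%), 6.61% and 4.39%, and the endothelial-like shares were 2.33%, 2.37%, 2.86% and 2.07%. The day 1 microglia-like shares are among the values that chose the genes and are given as a description.

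Markers of related cells moved as well. Summed over the list, 7 border macrophage markers held 21.4, 230, 54.4 and 153 CPM in the microglia-like cells of sham, day 1, day 3 and day 7, and 5, 1, 1 and 2 of the 7 were at 0. The 6 monocyte markers held 539, 1100, 712 and 631 CPM, with 2, 1, 2 and 2 at 0. In microglia-like cells with no UMI of these markers (Cd14 not counted), Gdf15 on day 1 was 97.4 CPM against 27.5 CPM in sham, a ratio of 3.54 (1.68 to 8.58). Rcan1 in the same cells was 173 against 17.2 CPM, a ratio of 10.1 (4.19 to 31.7). In these cells the Gdf15 ratio was 0.842 (0.352 to 2.22) on day 3 and 0.343 (0.0982 to 1.13) on day 7, and for Rcan1 the day 3 ratio was 3.76 (1.51 to 12.04) and the day 7 ratio 2.47 (0.939 to 8.22). The cells with no such UMI were 245 of 513 on day 1 and 105 of 129 in sham. On day 1 they held 59 of the 324 Gdf15 UMIs and 105 of the 608 Rcan1 UMIs. Most day 1 UMIs of both genes thus lay in marker-positive cells, whose part in the ratios to sham was not tested. Immediate-early genes, which are known to respond to cell dissociation, summed to 26954 CPM in sham and 6714 CPM on day 1, and their part in the results was not tested.

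With the main settings, no transcription factor of the set was called in microglia-like cells on any day. Atf4, the central activator of the response, held 138, 111, 185 and 130 CPM in sham, day 1, day 3 and day 7, with no call. Ddit3, the pro-apoptotic factor CHOP, held 71.2, 36.4, 91.2 and 74.1 CPM, from 30, 80, 114 and 74 UMIs. The day 1 library was the lowest for both. Ddit3 had a day 1 ratio of 0.511 (0.332 to 0.805), just inside the threshold at a log2 ratio of -0.88, where 11.1% of genes were called lower, and it passed as lower with cells of up to 6000 genes (log2 ratio -1.38). From day 1 to day 3, the ratio was 2.51 (1.87 to 3.38) for Ddit3 and 1.66 (1.38 to 2.0) for Atf4. Atf5, a related factor of the mitochondrial arm, held 2.37, 9.10, 11.2 and 8.01 CPM from 1, 20, 14 and 8 UMIs. It reached the minimum on day 3 only and was not called. With the stricter gate its day 3 value was called higher (log2 ratio 1.73).

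**Figure D4:**
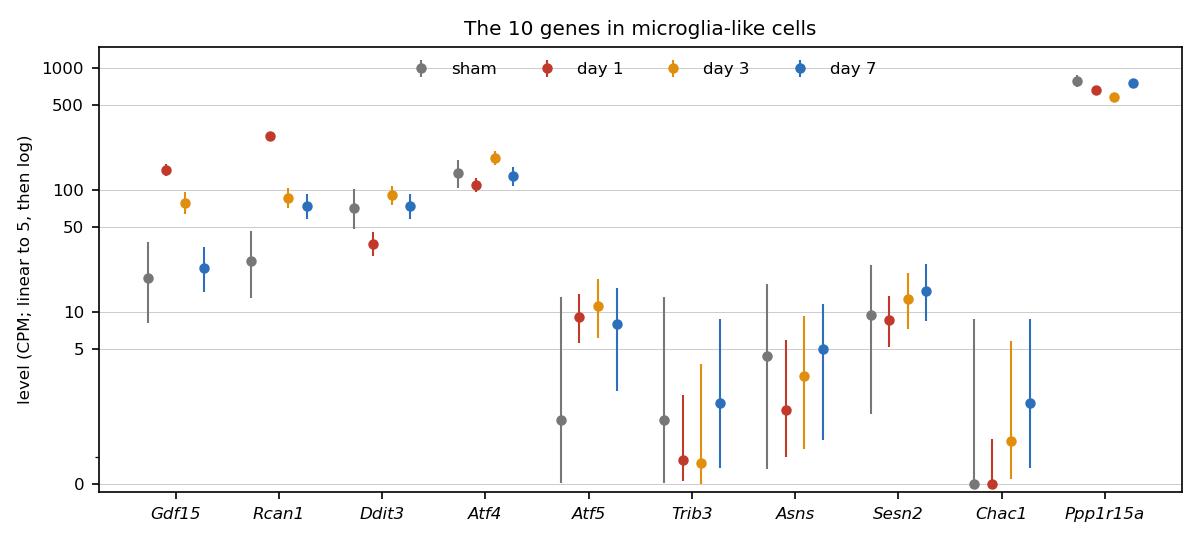
Summed level of the 10 genes in microglia-like cells of each library, in CPM on an axis that is linear to 5 and logarithmic above; bars are exact 95% Poisson intervals. On day 1 Gdf15 and Rcan1 are at their highest (147 and 277 CPM) while Ddit3 is at its lowest (36.4 CPM).

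In the other classes the factors gave 4 calls over the 3 days, described here and, for the erythrocyte-like cells, with Ppp1r15a. Endothelial-like Atf4 was 137, 129, 138 and 137 CPM in sham, day 1, day 3 and day 7, from over 2000 UMIs each. In astrocyte-like cells Atf4 was called higher on day 7, at 115 CPM against 46.5 CPM in sham (17 and 12 UMIs, log2 ratio 1.22), where 2.78% of genes in the class were. Its day 1 level there was 92.4 CPM, a ratio of 1.99 (1.05 to 4.07), and was not called. That day 1 value was called higher with clusters (log2 ratio 1.30), the stricter gate (1.14), mean levels per cell (1.83) and without the highest cell (1.04). Ddit3 in smooth muscle-like cells was 64.6, 53, 62.3 and 92.6 CPM, with no call. Atf5 held its highest pooled level, 135 CPM, in smooth muscle-like cells, where it was 171, 151, 192 and 75.5 CPM from 792, 430, 853 and 601 UMIs. It fell there on day 7, with a ratio of 0.443 (0.398 to 0.493), among the 0.120% of genes called lower in that class and day. The call was lost with a mitochondrial limit of 5% (log2 ratio -0.36) and narrowly with 20 CPM added (-0.996). With that mitochondrial limit, Atf5 was called higher in this class on day 3 (log2 ratio 1.05). Neuron-like Atf5 was also called lower on day 3, at 9.49 CPM against 36.0 CPM from 3 and 15 UMIs, where 5.45% of genes were, a call kept in 6 of 11 alternatives.

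Ppp1r15a encodes GADD34, the regulatory subunit that brings phosphatase to eIF2α and ends the response. Microglia-like cells held 786, 666, 580 and 758 CPM and smooth muscle-like cells 913, 821, 694 and 999 CPM in sham, day 1, day 3 and day 7. Neither class was called on any day. Astrocyte-like cells held 23.3, 61.6, 83.6 and 102 CPM, from 6, 38, 30 and 15 UMIs, and were called higher on all 3 days (log2 ratios 1.24, 1.65 and 1.91), where 5.03%, 4.93% and 2.78% of genes were. These calls held in 4 of 10, 6 of 9 and 5 of 7 alternatives in processing that gave a value. Immediate-early genes moved with them, 5, 3 and 6 of 8 being called higher in these cells on day 1, day 3 and day 7, and their part was not tested. The day 7 value rested on 52 cells, and 10 of its 15 UMIs lay in 1 of them. Choroid plexus-like cells held 18.8 CPM in sham, 64.0 CPM on day 1 and 82.7 CPM on day 7, both called (log2 ratios 1.53 and 1.88), where 1.66% and 9.30% of genes were. With no limit on genes per cell, these log2 ratios were -0.11 and 0.37. Here too 5 and 7 of 8 immediate-early genes were called higher, and their sum was 304 CPM in sham, 693 CPM on day 1 and 1822 CPM on day 7. Endothelial-like cells held 204, 272, 253 and 207 CPM and oligodendrocyte-like cells 29.8, 55.4, 37.5 and 41.9 CPM, neither called.

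Erythrocyte-like cells gave 2 more calls on day 3, Ppp1r15a at 120 against 43.4 CPM in sham and Atf4 at 61.4 against 13.2 CPM. In these cells 43.2% of genes were called higher on day 3, and the median log2 ratio of all genes was 1.06. After trimmed-mean scaling, the log2 ratios of these genes were 0.14 and 0.70, so neither call is read as a change of these genes relative to the rest.

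The effector genes, Trib3, Chac1, Asns and Sesn2, were scarce, and most of their combinations with a class lay under the test minimum. Those tested were Asns in endothelial-like and neuron-like cells, Sesn2 in microglia-like cells on day 3 and day 7, and Trib3 in endothelial-like cells on day 7. None of these was called. Chac1 was tested in no class, and for the untested combinations the absence of a call says nothing. Trib3 encodes a pseudokinase that restrains ATF4 and CHOP activity. Of its UMIs, 90.5%, 86.3%, 91.2% and 90.4% in sham, day 1, day 3 and day 7 came from endothelial-like cells, which held 36.4% to 50.4% of all UMIs. Its endothelial-like level was 8.54, 7.64, 9.79 and 11.8 CPM, and the day 7 ratio of 1.39 (1.12 to 1.72) excluded 1 without passing 2-fold. Day 7 over day 1 was 1.55 (1.25 to 1.93). In venous cells it was 8.09, 6.75, 14.1 and 23.4 CPM, from 4, 9, 38 and 23 UMIs. In microglia-like cells it stayed at or below 3.00 CPM.

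Chac1 encodes an enzyme that degrades glutathione. Endothelial-like cells, the largest class, gave 86.7%, 55.2%, 71.4% and 90.7% of its UMIs in sham, day 1, day 3 and day 7. Their pooled level was 2.43 CPM, from 171 UMIs. By level Chac1 was higher in neuron-like cells, at 4.43 CPM from 11 UMIs. Microglia-like cells held 0 Chac1 UMIs in sham and on day 1, 2 on day 3 and 3 on day 7, too few for any ratio. Asns, asparagine synthetase, held its highest pooled levels in neuron-like cells (38.7 CPM, 96 UMIs) and oligodendrocyte progenitor-like cells (37.2 CPM, 36 UMIs). Neuron-like Asns was 33.6 CPM in sham, 47.2 CPM on day 1 and 15.8 CPM on day 3, with no call against sham, and day 3 over day 1 was 0.335 (0.106 to 0.817) from 5 and 75 UMIs. In microglia-like cells Asns stayed between 2.73 and 5.01 CPM.

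Sesn2, a stress-induced sestrin that restrains mTORC1, held its highest pooled level in neutrophil-like cells, at 86.3 CPM (42 UMIs in 33 of 127 cells). Microglia-like cells held 9.50, 8.64, 12.8 and 15 CPM from 4, 19, 16 and 15 UMIs, with no call. The 3 genes with the composite response element in their promoter window, Asns, Chac1 and Trib3, were too scarce in microglia-like cells to be tested on any day, so the ratio of Gdf15 and Rcan1 cannot be set beside theirs.

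**Figure D5:**
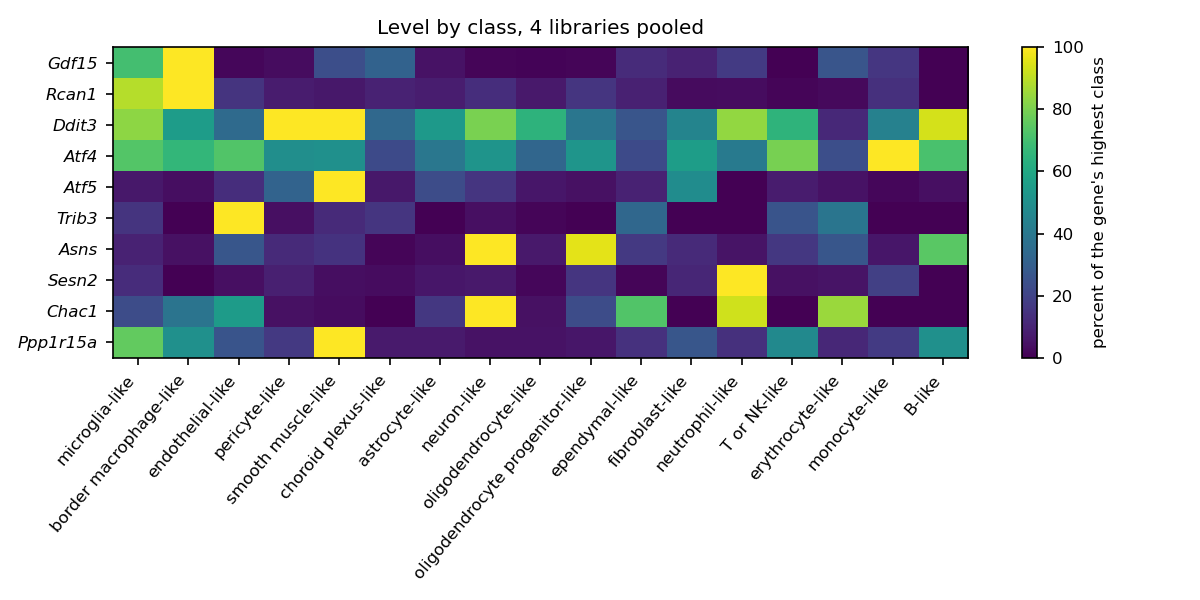
Level of each gene in each class of at least 50 cells, pooled over the 4 libraries, as a percentage of that gene's highest class (colour scale 0 to 100). The pooled levels weight each library by its UMIs. Gdf15 and Rcan1 peak in border macrophage-like cells (133 and 186 CPM), with microglia-like cells at 93.3 and 165 CPM, although on day 1 alone Rcan1 was 277 CPM in microglia-like and 218 CPM in border macrophage-like cells; Trib3 peaks in endothelial-like, Atf5 and Ppp1r15a in smooth muscle-like and Sesn2 in neutrophil-like cells.

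Other genes of the pathway, taken from chosen lists, were counted in microglia-like cells on day 1, where the median log2 ratio of all genes was -0.15. Of 23 other ATF4 targets, 16 were tested, with 4 higher, 2 lower and a median log2 ratio of 0.14, beside 9.14% of all genes higher and 11.1% lower. Among those that rose were the amino acid genes Slc7a11 and Psat1. Slc7a11, the cystine carrier, held 53 UMIs against 0 in sham, with an exact interval of the ratio from 2.66 upwards. Psat1, a serine synthesis enzyme, held 64.1 against 7.12 CPM, a ratio of 9.0 (3.02 to 44.2). Nupr1, a stress-induced chromatin protein, rose from 59.4 to 191 CPM. Atf3, an early stress factor, fell from 4818 to 1580 CPM and Herpud1, of ER-associated degradation, from 834 to 338 CPM.

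Upstream of ATF4, 9 kinase and phosphatase genes were tested in microglia-like cells, with 0 higher and 2 lower on day 1: Eif2ak2, the double-stranded RNA sensor PKR (16.4 against 68.9 CPM), and Eif2ak4, the amino acid sensor GCN2. The 9.14% higher and 11.1% lower of all genes are the background for these and the following counts. Of 15 ER chaperone and XBP1 or ATF6 target genes, 0 were called. Of 12 tRNA synthetase genes, 1 was lower, and of 8 calcineurin and NFAT genes, 0 were called. Of 8 p53 targets, 2 were lower, and of 8 immediate-early genes, 1 was higher and 6 lower.

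In endothelial-like cells on day 1, where 1.46% of genes were called higher and 1.66% lower, the same lists gave few calls. Of 12 ATF4 targets tested, Cebpb was higher, and Nr4a1 was the only higher one of 8 immediate-early genes. Eif2ak2 was lower, at 23.7 against 123 CPM (ratio 0.192, 0.172 to 0.215), and was called lower on day 1 in 7 of the 8 classes compared. No tRNA synthetase, ER chaperone, calcineurin or p53 gene was called there. Gfral and Ret, the parts of the GDF15 receptor, were below the test minimum in microglia-like cells. In endothelial-like cells Ret was 14.2 CPM in sham and 8.43 CPM on day 1.

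Within day 1 microglia-like cells thinned to 1000 UMIs, cells with a Ddit3 UMI held 0 Gdf15 UMIs in 12 cells, against 40 in 403 cells without one (ratio 0, 0 to 3.24). Cells with an Rcan1 UMI held 119 CPM of Gdf15 against 92.0 CPM, a ratio of 1.30 (0.517 to 2.88), and Gdf15 by Ppp1r15a was 1.39 (0.698 to 2.72). Rcan1 in cells with a Ppp1r15a UMI was 375 against 166 CPM, a ratio of 2.26 (1.49 to 3.43), but 0.639 (0.186 to 1.77) on day 3 and 0.678 (0.149 to 2.53) on day 7. Rcan1 by Atf4 was 1.71 (0.935 to 2.95) and Gdf15 by Atf4 71.4 against 99.2 CPM on day 1. At 2000 UMIs, which left 309 cells, the same split by Ddit3 gave 37 Gdf15 UMIs in 22 cells against 47 in 287 (ratio 10.3, 6.49 to 16.1), so the direction depended on the depth and on few cells. Gdf15 by Rcan1 was then 0.739 (0.407 to 1.27), Gdf15 by Ppp1r15a 3.2 (1.88 to 5.73), Rcan1 by Ppp1r15a 2.68 (1.89 to 3.87), Rcan1 by Atf4 1.80 (1.28 to 2.51), Gdf15 by Atf4 1.05 (0.58 to 1.81) and Rcan1 by Gdf15 0.439 (0.197 to 0.853). At this depth Rcan1 by Ppp1r15a was 1.86 (0.891 to 4.05) on day 3 and 0.704 (0.279 to 1.82) on day 7. Its day 3 direction thus also depended on the depth. The UMIs were clumped within cells, so these intervals are too narrow.

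Over the 38 combinations of class and library with at least 50 cells, and 13601 genes reaching 20 CPM in one of them, the genes whose log2 level was most like that of Gdf15 were Rapsn, Tuba1c, Maf, Slc37a2 and Ninj1 (Pearson correlation 0.80 to 0.74). Those most like Rcan1 were Msr1, Cndp2, Ntpcr, Uhrf1 and Lbx2 (0.81 to 0.78), and those most like Ddit3 were Srsf5, Rap2a, Fance, Brd2 and Dgkd (0.80 to 0.77). The correlation of Gdf15 with Rcan1 was 0.59, with Ppp1r15a 0.55, with Ddit3 0.15 and with Atf4 0.14. These combinations share libraries and classes, so the correlations describe likeness of pattern only. They also include the day 1 microglia-like values that chose Gdf15 and Rcan1, so the correlation of this pair supports nothing.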

How the data were processed

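Droplet 3′ counts were analysed from the 4 libraries, 1 per group. The authors deposited one matrix of UMI counts per library, raw and not normalized. The submitters' notes name Cell Ranger 3.0.1, Seurat 4.1.2 and a human build, whereas the deposited file headers name Cell Ranger 4.0.0 and the gene identifiers are those of mouse; 30934 of 31053 were found in a mouse GRCm38 annotation.

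Following the study's stated quality control, barcodes with fewer than 200 or more than 3000 detected genes, or over 10% of UMIs from mitochondrial genes, were dropped. The paper reports more kept cells in every group, and a much larger share of microglia in each, than were found here. Its cells and its microglia were therefore not reproduced. A cell took the class whose marker score was at least 0.15 and 1.5 times the next, with 2 or more of its markers detected. Counts were summed per class and library, giving CPM, with exact Poisson intervals and exact conditional intervals of ratios (95%). A call needed a 2-fold ratio after adding 5 CPM and an interval without 1. The call was tested on simulated data. The automatic Scrublet threshold did not work in 3 libraries, so the highest-scoring 0.8% of barcodes per 1000 barcodes were taken as likely doublets, kept, and removed as an alternative. Some members overlap other genes: Ddit3, Rcan1, Atf5 and Ppp1r15a have a gene on the other strand and Sesn2 one on its own strand, and how such reads were counted is not given in the sources used here.

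Members and gene lists were chosen with earlier results of these data known. Named genes were the 10 members, the 3 highest and 3 lowest of each list on day 1 in microglia-like and endothelial-like cells, and the 5 genes most like Gdf15, Rcan1 and Ddit3; the count of classes for Eif2ak2 was added after its values were seen. Alternatives were other gene and mitochondrial limits, a stricter gate, clusters in place of the gate, no likely doublets, TMM scaling, 1 or 20 CPM added, 100 cells a class and mean levels per cell. Samples have no replicates. Python 3.11.15, scipy 1.17.1, scanpy 1.11.5, R 4.3.3 and edgeR 4.0.16 (TMM factors only) were used.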

Additional observations from a re-analysis of the deposited data

How the results depend on the processing

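No paired analysis was possible because each group holds 1 library, and no replicate could be left out. Of 1488 log2 ratios of the members under alternatives, 1391 kept their call or, where never called, stayed within the counting interval of the reported ratio; 103 of those changed sign, all uncalled in both settings. A further 32 lost and 12 gained a call, 6 reversed with a call in one setting, and 47 uncalled values left the interval. The day 1 calls of Gdf15 and Rcan1 in microglia-like cells, and those of Rcan1 on day 3 and day 7, held in 12 of 12 alternative settings over all cells of the class. The day 1 and sham values of this pair chose the set, so this is a description only. The day 7 Rcan1 call was lost in the later-added subset without marker-positive cells (1.10). The day 3 call of Gdf15 in microglia-like cells held in 10 of 12, and was lost with the stricter gate (0.12) and without likely doublets (0.22). Leaving out the highest cell of each library, and the subsets of microglia-like cells, were alternatives added after seeing the data; without the highest cell in both libraries its day 3 log2 ratio was 1.40, since sham lost 6 of 8 UMIs.

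The classes with higher Gdf15 on day 1, 3 in all, became 1 with 5% mitochondrial UMIs and 1 with 20 CPM added, and on day 3, 1 became 0 with the stricter gate and 0 without likely doublets. Of the member calls, the 6 higher on day 1 became 3 with no gene limit, 2 with 5% mitochondrial UMIs, 3 with 20 CPM added and 3 with at least 100 cells, and the 0 lower became 4 with 6000 genes, 2 with no gene limit and 1 with mean levels per cell. The 5 higher on day 3 became 2 with clusters, 3 with the stricter gate, 2 without likely doublets, 3 with TMM and 2 with 100 cells, and the 1 lower became 2 without likely doublets and 0 with 6000 genes, no gene limit, 5% mitochondrial UMIs, the stricter gate, 20 CPM and 100 cells. The 4 higher on day 7 became 2 with no gene limit, 1 with 5% mitochondrial UMIs, 2 with the stricter gate, 2 without likely doublets and 1 with 100 cells, and the 1 lower became 0 with 5% mitochondrial UMIs, 2 with clusters and 0 with 20 CPM. Some calls left these counts because they had no value, not because they failed. With 5% mitochondrial UMIs or 100 cells, no astrocyte-like or choroid plexus-like call had a value. The erythrocyte-like calls had none with the stricter gate, without likely doublets or with 100 cells. The day 7 astrocyte-like calls had none with the stricter gate or without likely doublets.

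The day 1 microglia-like level of Gdf15 (147 CPM) was 128 with 6000 genes, 127 with no limit, 128 with clusters, 169.8 with TMM and 99.9 as a mean per cell, and that of Rcan1 (277 CPM) was 235, 237, 251, 319 and 202. The share with a Gdf15 UMI (5.78%) was 11% at 2000 UMIs and 12.1% unthinned, and with an Rcan1 UMI (16.1%) 6.82% at 500, 25.6% at 2000 and 28.1% unthinned. The ratio of Gdf15 in cells with a Ddit3 UMI (0) became 10.3 at 2000 UMIs. Reversed log2 ratios were Gdf15 in choroid plexus-like cells on day 1 with no gene limit (-0.029), Gdf15 in microglia-like cells on day 7 with clusters (-1.13, called lower) and on day 3 without cells holding border macrophage or monocyte markers (-0.21), and Ppp1r15a on day 1 in astrocyte-like cells with no gene limit (-0.072) or mean levels (-0.11) and in choroid plexus-like cells with no gene limit (-0.11). The causes were not tested. Depth limits the sham values, which in microglia-like cells rest on 8 Gdf15 and 11 Rcan1 UMIs. Without marker-positive cells the day 7 Gdf15 log2 ratio there was -1.17, with no call.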
